A study of Homo sapiens with 9 samples.

Results

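Transcripts of 10 genes that carry signals from antigen receptors were measured in OPM-1 cells, a line grown from a human plasma cell myeloma. They are the linker adaptors LAT and LAT2, the B cell adaptor BLNK, the kinases LYN, SYK and BTK, the exchange factors VAV1, VAV2 and VAV3, and the phospholipase PLCG2, 10 of the 38478 genes in the table. LAT and VAV1 were picked because they were lower in cells with both targeting RNAs, and the other 8 were added as their family members and pathway partners. For LAT and VAV1, the values in the comparisons with that group are therefore a description, with no test. The groups were gFBXW7_gKMT2D (RNAs against FBXW7 and KMT2D, written gFBXW7 + gKMT2D in the labels), gFBXW7 (against FBXW7 alone) and gLuc (against luciferase, the control), each with 3 libraries from biological replicates described as independent. All cells expressed their targeting RNAs stably, carried the genotype label WT and grew in RPMI with 10% FBS. The labels say neither how the RNAs act on their targets nor whether the cells were pools or clones. Messenger RNA was selected for poly(A) tails and sequenced in strand-specific libraries with 16337492 to 27076242 counted reads each.

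In B cells, binding of antigen lets the Src family kinase LYN phosphorylate the receptor tails, on which SYK docks and becomes active. SYK phosphorylates the adaptor BLNK, which brings BTK and the phospholipase PLCG2 together at the membrane, while VAV proteins load small GTPases with GTP. LAT does the work of such an adaptor in T cells, NK cells and mast cells, with LAT2 as its relative in B cells and myeloid cells. Plasma cells secrete antibody and largely give up the surface receptor and parts of its signalling chain.

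The plasma cell markers were all present in the 9 libraries, with 9 of 9 above 1 CPM on average, where CPM is a gene's read count scaled to the library total with TMM factors. Of the T cell markers, 0 of the 8 in the table reached 1 CPM, CD2 and CD5 had no read in any library, and the 8 together summed to 0.0718 to 0.225 CPM in gFBXW7_gKMT2D, 0.298 to 0.408 CPM in gFBXW7 and 0.318 to 0.396 CPM in gLuc. LAT alone stood between 4.75 and 14.6 CPM, so its reads were accompanied by next to no reads of those markers. Of 9 mature B cell markers, 2 reached 1 CPM (CIITA and SPIB), and FCER2 was at 0 in all libraries. Their sum was 10.95 to 13.1 CPM in gFBXW7_gKMT2D, below the 16.3 to 18.65 CPM of gFBXW7 and the 18.2 to 22.9 CPM of gLuc. CIITA (8.25, 11.3 and 13.5 CPM in gFBXW7_gKMT2D, gFBXW7 and gLuc) and SPIB (2.32, 5.53 and 5.08 CPM in the same order) made up nearly all of that sum, while MS4A1 averaged 0.173 CPM in gFBXW7_gKMT2D, 0.035 CPM in gFBXW7 and 0.0841 CPM in gLuc. The T cell sum came from a few reads, chiefly of CD3E (1, 2 and 0 reads in gFBXW7_gKMT2D, 4, 3 and 3 in gFBXW7 and 4, 3 and 2 in gLuc) and CD247. Both sums were lower in the libraries where LAT and VAV1 were lower, and their part in those values was not tested. In RNA from bulk cells, fewer cells that express a gene and less RNA per cell cannot be told apart. By the mean over the 9 libraries, the NK cell list had 1 of 5 genes above 1 CPM (NCAM1) and the red cell and platelet list 1 of 5 (HBB). The myeloid and mast cell list had 0 of 8, with TYROBP and SPI1 at 0 and FCER1G at 0.989 CPM. FCER1G averaged 1.18 CPM in gFBXW7_gKMT2D, 1.06 CPM in gFBXW7 and 0.726 CPM in gLuc. Its log2 fold change was 0.68 (SE 0.27, edgeR adjusted p = 0.90) in gFBXW7_gKMT2D against gLuc. Transcript levels of the targets did not separate the groups: FBXW7 lay at 45.2 to 71.7 CPM in gFBXW7_gKMT2D, 53.4 to 55.5 in gFBXW7 and 47.9 to 53.9 in gLuc, and KMT2D at 28.6 to 107.0, 48.8 to 65.1 and 41.0 to 104.3 CPM in the same groups. Ribosomal protein genes took 5.46% to 11.2% of counts in gFBXW7_gKMT2D, 6.80% to 8.56% in gFBXW7 and 5.03% to 8.24% in gLuc, and library gFBXW7_gKMT2D 3 stood apart with the highest share.

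The promoters of LAT and VAV1 are shown because these genes were lower in the same 3 libraries. Each stretch is the 250 bases before a transcript start, on the plus strand of GRCh38.p14 from RefSeq, at chr16:28984553-28984802 for LAT and chr19:6772458-6772707 for VAV1. Capitals mark matches to the motifs searched on both strands, so CCGCCC is a GC box read on the other strand.
LAT: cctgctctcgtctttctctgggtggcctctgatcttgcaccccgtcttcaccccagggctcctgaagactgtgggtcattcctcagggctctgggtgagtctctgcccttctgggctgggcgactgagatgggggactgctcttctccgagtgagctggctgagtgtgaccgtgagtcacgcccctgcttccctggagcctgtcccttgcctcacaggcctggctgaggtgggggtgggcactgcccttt
VAV1: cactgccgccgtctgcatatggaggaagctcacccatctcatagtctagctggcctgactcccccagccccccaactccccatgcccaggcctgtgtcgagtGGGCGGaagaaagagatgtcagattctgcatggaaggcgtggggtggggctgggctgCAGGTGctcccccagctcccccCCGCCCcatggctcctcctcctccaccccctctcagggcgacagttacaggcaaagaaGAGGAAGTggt
The motifs were CCGGAA (the core of many ETS factor sites), the composite of ETS and IRF factors (GGAA and GAAA with 2 bases of any kind between), CAGGTG (an E-box bound by E proteins) and GGGCGG (the GC box). GAGGAAGT, the kind of site that PU.1 and SPIB bind, was added after the sequences had been read. The VAV1 stretch held 2 GC boxes, 1 E-box and 1 GAGGAAGT match, which began 11 bases before the start. GAGGAAGT occurs in 2.17% of the 35116 promoter stretches of this length in the table, against 17.5% for CAGGTG, 42.6% for GGGCGG, 14.5% for CCGGAA and 2.41% for the composite. Because GAGGAAGT was added after reading, its match at VAV1 was known beforehand, and nothing is read from its low share. The LAT stretch held none of the 5 motifs, and the window of a second LAT start held 1 E-box and 1 GC box. Promoters were found for 8 of the 10 members. GAGGAAGT also occurred once at 1 of the SYK starts and in 2 places at 1 of the BTK starts. The LAT stretch overlaps an exon of AC109460.3, a non-coding transcript annotated on the same strand. A match is a string of letters here, with no binding measured.

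Level per length was compared by the RPKM that the authors deposited, the read count divided by gene length and library total. In gLuc the order from high to low was VAV1, LAT, LYN, VAV2, BLNK, LAT2, PLCG2, then SYK, VAV3 and BTK at or near 0. VAV1, the VAV protein of blood cells, averaged 20.0 ± 1.09 RPKM in gLuc (SD, n = 3) and lay above 87.1% of genes with any read, by its mean over all 9 libraries. LAT followed with 5.65 ± 1.04 RPKM and LYN with 4.99 ± 0.932 RPKM, and these neighbours in the order overlapped. VAV2, the broadly expressed VAV protein, averaged 2.30 ± 0.125 RPKM and overlapped with neither LYN nor BLNK, which averaged 0.743 ± 0.0699 RPKM. LAT2 and PLCG2 overlapped at 0.336 ± 0.119 and 0.187 ± 0.0399 RPKM. The other enzyme of its kind, PLCG1, averaged 5.82 ± 1.26 RPKM.

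Both kinases that act after LYN were at or near 0 reads. BTK, the Tec family kinase that activates PLCG2 in B cells, had 0 of 171971414 reads over the 9 libraries, which allows up to 0.0174 CPM or 0.00564 RPKM by counting error alone. SYK, the kinase that docks on the phosphorylated receptor, had 1 read in all, in gLuc 1. VAV3 had 5 reads, with 1, 0 and 1 in gFBXW7_gKMT2D, 3, 0 and 0 in gFBXW7 and none in gLuc. ZAP70, the relative of SYK in T cells, had 1 to 10 reads per library. Of the Tec family, TEC averaged 5.26 ± 1.87 RPKM in gFBXW7_gKMT2D, 6.08 ± 0.477 RPKM in gFBXW7 and 7.08 ± 1.33 RPKM in gLuc. TXK of the same family averaged 2.45 RPKM in gLuc.

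**Figure D1:**
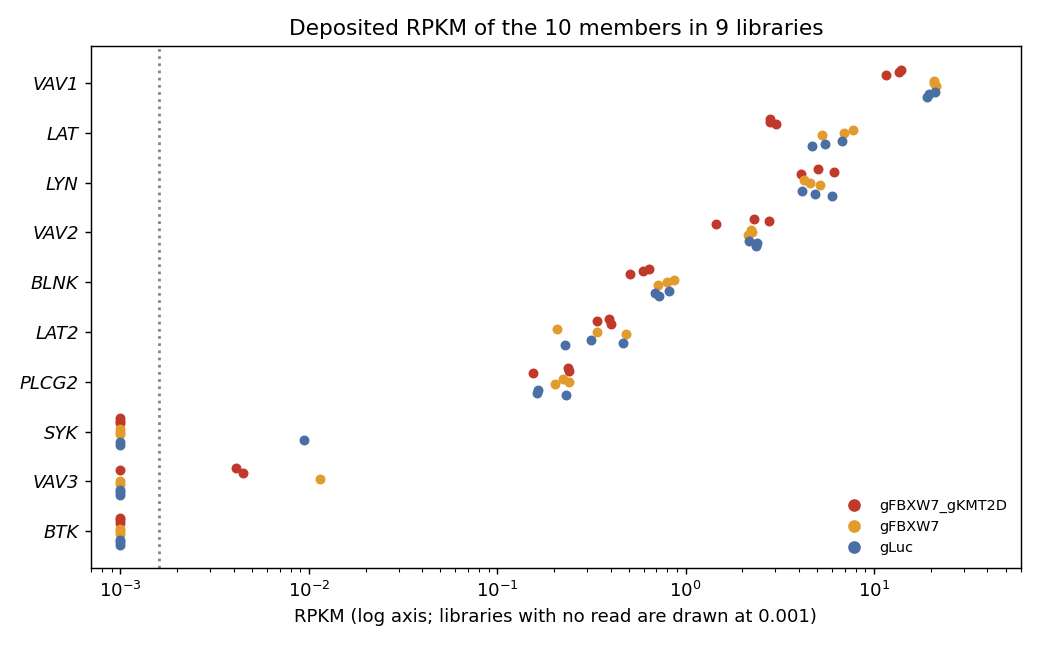
Deposited RPKM (log axis) of the 10 members in the 9 libraries, coloured by group, with libraries without a read drawn at 0.001. VAV1 is highest in all groups, with 11.5 to 13.9 RPKM in gFBXW7_gKMT2D against 19.1 to 21.2 RPKM in gLuc, and BTK has no read in any library.

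LAT, a membrane adaptor whose phosphorylated tyrosines recruit GRB2 and PLC-gamma enzymes, had 92, 140 and 91 reads in gFBXW7_gKMT2D, 271, 214 and 188 in gFBXW7 and 242, 172 and 167 in gLuc. Scaled for depth these were 5.17, 4.75 and 6.53 CPM in gFBXW7_gKMT2D, 14.6, 12.7 and 9.58 CPM in gFBXW7, against 12.8, 9.72 and 8.14 CPM in gLuc. All 3 gFBXW7_gKMT2D libraries lay below all 6 others, while gFBXW7 and gLuc overlapped. Of all tested genes, 3.69% had their gFBXW7_gKMT2D libraries below all gLuc libraries and 5.2% below all gFBXW7 libraries, and nothing is read from this for LAT and VAV1, which were picked on it. The log2 fold change of LAT was -1.18 (SE 0.23) against gFBXW7 and -0.91 (SE 0.23) against gLuc, or 0.44-fold and 0.53-fold. The gene lies on chromosome 16 from 28984826 to 28990783 (GRCh38, GENCODE v29), where AC109460.3 on the same strand and AC109460.4 on the other overlap it. Some of its reads may belong to the first, and to the second if the authors' counting did not use strand. The 2 protein-coding genes before LAT, looked at after the LAT values were known, did not pass the test in any comparison. SPNS1, the nearest, averaged 27.4 ± 5.86 CPM in gFBXW7_gKMT2D, 32.6 ± 2.46 CPM in gFBXW7 and 29.2 ± 3.50 CPM in gLuc (SD, n = 3), and NFATC2IP had a log2 fold change of 0.14 (SE 0.14, edgeR adjusted p = 0.90) in gFBXW7_gKMT2D against gLuc. NPIPB11 and BOLA2 after LAT, whose reads are uncertain because near-identical copies exist, had 0.41 (SE 0.29) and 0.36 (SE 0.43), with an edgeR adjusted p of 0.90 for each.

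LAT2, also called NTAL, had 16, 21 and 15 reads in gFBXW7_gKMT2D, 9, 13 and 21 in gFBXW7 and 14, 18 and 10 in gLuc. These counts overlapped between all groups, and LAT2 did not pass the test in any comparison, with a log2 fold change of 0.23 (SE 0.37, edgeR adjusted p = 0.90) in gFBXW7_gKMT2D against gLuc. LAT made up 87.7% to 89.2% of the RPKM of the pair in gFBXW7_gKMT2D, 91.7% to 97.4% in gFBXW7 and 92.2% to 95.5% in gLuc, so LAT made up more of this pair than LAT2 in every library.

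VAV1, which loads RAC GTPases with GTP below antigen receptors, had 40.9, 36.6 and 39.8 CPM in gFBXW7_gKMT2D, 62.8, 61.5 and 61.2 CPM in gFBXW7, against 64.0, 55.6 and 52.5 CPM in gLuc. Again all 3 gFBXW7_gKMT2D libraries lay below the 6 others, which overlapped. Its log2 fold change was -0.66 (SE 0.12) against gFBXW7 and -0.55 (SE 0.12) against gLuc, or 0.63-fold and 0.68-fold. VAV1 has the most reads of the 10 members, 9028 in all (chromosome 19, 6772714 to 6857366), and no other annotated gene overlaps it. SH2D3A and TRIP10, the nearest protein-coding genes before VAV1, were chosen after the values were known. They had log2 fold changes of -0.14 (SE 0.23, edgeR adjusted p = 0.91) and -0.11 (SE 0.13, edgeR adjusted p = 0.90) in gFBXW7_gKMT2D against gLuc. Against gFBXW7 those of SH2D3A and TRIP10 were -0.52 (SE 0.23) and -0.27 (SE 0.13), with an edgeR adjusted p of 1 for each. On the other side of VAV1, ADGRE1 averaged 0 CPM in gFBXW7_gKMT2D, 0.017 CPM in gFBXW7 and 0 CPM in gLuc and was not tested.

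VAV2, which does the same work in most tissues, had 15.4, 17.0 and 11.4 CPM in gFBXW7_gKMT2D, 15.4, 15.1 and 14.1 CPM in gFBXW7, against 14.9, 15.4 and 14.8 CPM in gLuc. The gFBXW7_gKMT2D libraries held both the highest and the lowest value, the lowest in library 3. VAV2 did not pass the test, with log2 fold changes of -0.02 (SE 0.16, edgeR adjusted p = 1) in gFBXW7_gKMT2D against gFBXW7 and -0.04 (SE 0.16, edgeR adjusted p = 0.96) against gLuc. Without library 3 they were 0.13 and 0.11. Of the RPKM of the 3 VAV genes, VAV1 took 83.1% to 88.8% in gFBXW7_gKMT2D, 90.2% to 90.8% in gFBXW7 and 89.0% to 90.7% in gLuc.

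**Figure D2:**
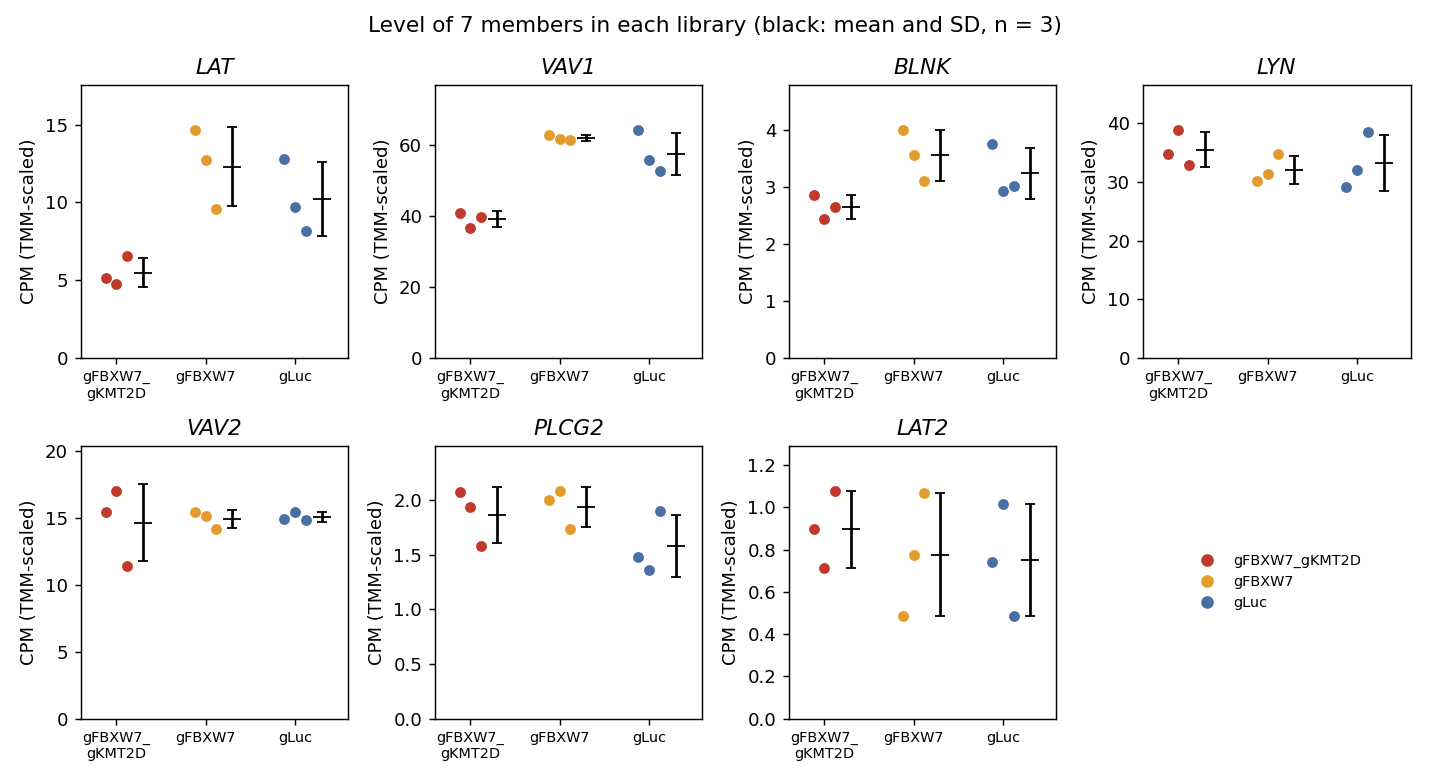
CPM of the 7 members with enough reads for a test, 1 circle per library, with means and SDs of 3 libraries in black and axes that start at 0. LAT (4.75 to 6.53 CPM) and VAV1 (36.6 to 40.9 CPM) are lower in gFBXW7_gKMT2D than in every gFBXW7 and gLuc library, and VAV2, PLCG2, LAT2 and LYN overlap between groups.

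BLNK, the adaptor that ties SYK to BTK and PLCG2, had 2.86, 2.44 and 2.66 CPM in gFBXW7_gKMT2D, 4.0, 3.57 and 3.11 CPM in gFBXW7, against 3.76, 2.94 and 3.02 CPM in gLuc. The gFBXW7_gKMT2D libraries were the 3 lowest of the 9, by a narrow gap to gLuc 2. Of all tested genes, 3.69% lay below all gLuc libraries and 5.2% below all gFBXW7 libraries, each counted separately. The share below both groups at once was not counted. The log2 fold change of BLNK was -0.43 (SE 0.19, edgeR unadjusted p = 0.046, adjusted p = 1) against gFBXW7 and -0.29 (SE 0.19, edgeR adjusted p = 0.90) against gLuc, and neither passed the threshold. Without gLuc 1 the second was -0.17. BLNK lies on the minus strand of chromosome 10 from 96191702 to 96271587, where ZNF518A overlaps it on the other strand, and the strand setting of the authors' counting is not given in the sources used here.

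LYN, the Src family kinase that starts the signal in B cells and also acts on inhibitory receptors, had 34.7, 38.8 and 32.9 CPM in gFBXW7_gKMT2D, 30.2, 31.4 and 34.7 CPM in gFBXW7, against 29.2, 32.1 and 38.5 CPM in gLuc. The groups overlapped, and the log2 fold change was 0.15 (SE 0.14, edgeR adjusted p = 1) in gFBXW7_gKMT2D against gFBXW7 and 0.09 (SE 0.14, edgeR adjusted p = 0.90) against gLuc. PLCG2, which cleaves a membrane lipid to release calcium, had 37, 57 and 22 reads in gFBXW7_gKMT2D, 37, 35 and 34 in gFBXW7 and 28, 24 and 39 in gLuc. Its log2 fold change was -0.04 (SE 0.21, edgeR adjusted p = 1) against gFBXW7 and 0.24 (SE 0.22, edgeR adjusted p = 0.90) against gLuc.

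Of the 8 members not picked by their values, 5 had enough reads for the edgeR quasi-likelihood test, and 0 passed an adjusted p of 0.05 in gFBXW7_gKMT2D against gLuc, where 0.0528% of the 13262 tested genes did. Likewise 0 of the 5 passed in gFBXW7_gKMT2D against gFBXW7, where 0.0603% of genes did. DESeq2 and limma-voom also called 0 of the 5 in both. At an unadjusted p under 0.05 the edgeR fit gave 0 against gLuc (3.61% of all genes) and 1, BLNK, against gFBXW7 (4.22% of all genes). The 2 comparisons share the gFBXW7_gKMT2D libraries.

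In gFBXW7 against gLuc, for which no member was picked, 0 of the 7 tested members passed in edgeR, DESeq2 or limma-voom, and 0 had an unadjusted p under 0.05. Over all genes edgeR called 0, or 0%, and 1.58% had an unadjusted p under 0.05. LAT had a log2 fold change of 0.27 (SE 0.22, edgeR adjusted p = 0.96) and VAV1 of 0.11 (SE 0.12, edgeR adjusted p = 0.96), both toward higher values in gFBXW7. PLCG2 had 0.29 (SE 0.22, edgeR adjusted p = 0.96) and the other four lay between -0.05 and 0.13.

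**Figure D3:**
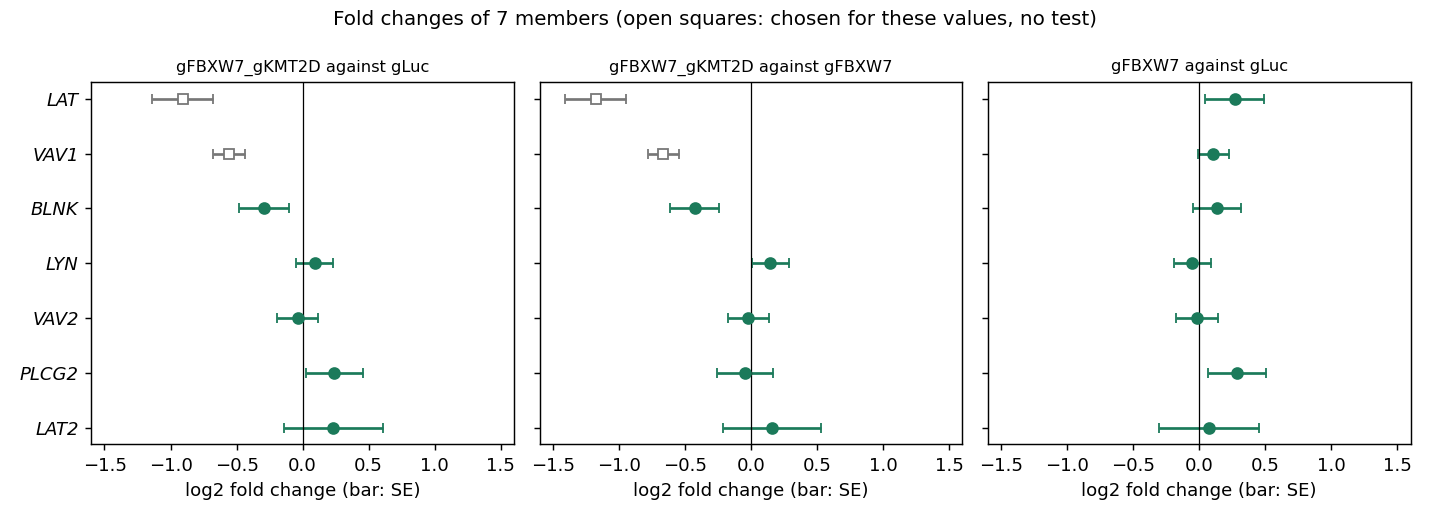
Log2 fold change (x axis) with its standard error (bars) of 7 members in the 3 comparisons. Open squares mark LAT and VAV1 where they were chosen for these values, at -0.91 and -0.55 against gLuc and -1.18 and -0.66 against gFBXW7, and in gFBXW7 against gLuc they lie at 0.27 and 0.11.

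Within groups, LAT followed the ribosomal protein share of the library. In each of the 3 groups the library with the larger share had the higher LAT level, from 4.75 CPM at 5.46% to 6.53 CPM at 11.2% in gFBXW7_gKMT2D, from 9.58 CPM at 6.80% to 14.6 CPM at 8.56% in gFBXW7, and from 8.14 CPM at 5.03% to 12.8 CPM at 8.24% in gLuc. Over the 6 libraries of gFBXW7 and gLuc, log2 CPM and this share had a Pearson r of 0.96 for LAT, 0.94 for VAV1, 0.91 for BLNK, 0.23 for VAV2, 0.12 for PLCG2, -0.07 for LAT2 and -0.89 for LYN. The order of the 3 libraries by level matched that by share in 2 of 3 groups for VAV1, in 1 of 3 for BLNK, VAV2 and LAT2 and in 0 of 3 for LYN and PLCG2. These values come from 2 groups of the same experiment and from counts in the same libraries, so they are a description. How many of all tested genes reach such an r was not counted, so the values are not read as particular to these members. Over all 9 libraries r was 0.11 for LAT and -0.09 for VAV1. Transcripts of mitochondrial DNA took 2.04% to 3.67% of counts in gFBXW7_gKMT2D, 0.638% to 1.54% in gFBXW7 and 1.64% to 3.33% in gLuc. The part of these shares in the levels of the members was not tested.

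**Figure D4:**
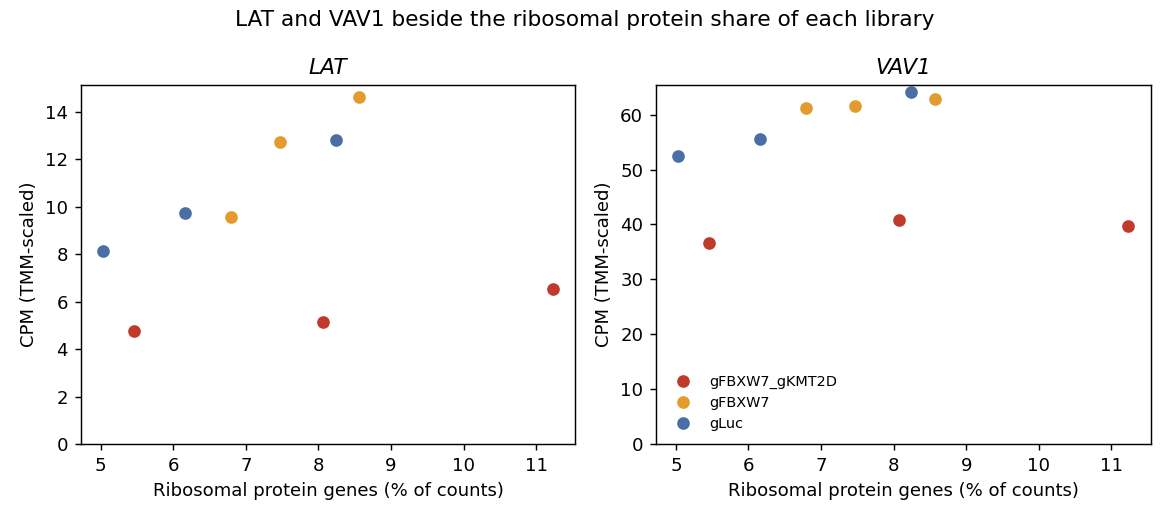
CPM of LAT (left) and VAV1 (right) against the percentage of counts in ribosomal protein genes, 1 point per library, coloured by group. LAT climbs with the share within each group, and the 3 gFBXW7_gKMT2D points, at 5.46% to 11.2%, stay below the 6 others.

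Over the 6 libraries of gFBXW7 and gLuc, log2 CPM of LAT had r = 0.84 with VAV1 and 0.94 with BLNK. Over all 9 libraries r was 0.95 between LAT and VAV1, a value that their choice as genes low in the same 3 libraries had fixed to be high. Among 9973 genes with a mean log2 CPM of at least 2, those most like LAT over the 9 libraries were GTF2H2B (r = 0.97), MYADML2 (r = 0.96) and IL27RA (r = 0.95). Reads of GTF2H2B are uncertain, since near-identical copies of it exist. Those most like VAV1 were GPR132 (r = 0.98), TRAF3IP3 (r = 0.98) and PTP4A3 (r = 0.98). GPR132, a G protein-coupled receptor of lymphoid and myeloid cells, averaged 22.3 CPM in gFBXW7_gKMT2D, 37.1 CPM in gFBXW7 and 35.8 CPM in gLuc. These likenesses rest on the same 9 libraries, so the choice of LAT and VAV1 for their low values in 3 of them set which genes came out as most like them, and nothing more is read from the ranks.

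A list of 80 other genes of antigen receptor signalling was used to place the members, of which 56 had enough reads for a test. By edgeR 0 passed the threshold in any of the 3 comparisons, beside 0.0528% of all tested genes in gFBXW7_gKMT2D against gLuc, 0.0603% in gFBXW7_gKMT2D against gFBXW7 and 0% in gFBXW7 against gLuc. An unadjusted p under 0.05 was found for 4 of the 56 in the first of these (3.61% of all genes), for 4 in the second (4.22%) and for 1 in the third (1.58%). DESeq2 and limma-voom also called 0. In gFBXW7_gKMT2D against gLuc the median log2 fold change over all tested genes was 0.00, with 6627 of 13262 below 0. For the 56 it was -0.15, with 43 below 0. Without gFBXW7_gKMT2D 3 that median was -0.04, without gLuc 3 -0.08 and without gFBXW7_gKMT2D 2 -0.32, and with 1 surrogate variable it was -0.05. In gFBXW7_gKMT2D against gFBXW7 the median over all tested genes was 0.02, with 6017 of 13262 below 0. For the 56 it was -0.03, with 30 below 0. It was -0.16 with 44 below 0 without gFBXW7_gKMT2D 2 and turned positive without gFBXW7_gKMT2D 1 (0.02), gFBXW7_gKMT2D 3 (0.06), gFBXW7 2 (0.02) or gFBXW7 3 (0.02), and it was -0.07 without gFBXW7 1. In gFBXW7 against gLuc the median over all tested genes was -0.004, with 6727 of 13262 below 0. For the 56 it was -0.14, with 36 below 0. It ran from -0.21 without gLuc 1 to -0.05 without gLuc 3, was -0.06 without gFBXW7 1, and was -0.02 with 1 surrogate variable.

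At the receptor end, the chains differed in level. CD79A, a signalling chain of the B cell receptor, had 0 to 3 reads per library. CD79B, its partner chain, averaged 19.7 ± 9.19 CPM in gFBXW7_gKMT2D, 23.6 ± 2.19 CPM in gFBXW7 and 18.4 ± 5.59 CPM in gLuc and did not pass the test. PTPRC (CD45), the phosphatase that keeps Src family kinases active, had 15, 37 and 14 reads in gFBXW7_gKMT2D, 6, 4 and 9 in gFBXW7 and 7, 11 and 14 in gLuc. Its log2 fold change was 1.59 (SE 0.35, edgeR unadjusted p = 0.0012, adjusted p = 0.52) against gFBXW7 and 0.90 (SE 0.33, edgeR unadjusted p = 0.020, adjusted p = 0.90) against gLuc, at under 2 CPM in every library. The gFBXW7_gKMT2D libraries lay above all gFBXW7 and all gLuc libraries, as they did in 577 and 435 of the 13262 tested genes. CR2, the complement receptor that works with the B cell coreceptor, had 6, 13 and 8 reads in gFBXW7_gKMT2D, 6, 14 and 18 in gFBXW7 and 18, 14 and 19 in gLuc. Its log2 fold change was -0.63 (SE 0.40, edgeR adjusted p = 1) against gFBXW7 and -0.997 (SE 0.39, edgeR unadjusted p = 0.029, adjusted p = 0.90) against gLuc.

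Among the adaptors, GRB2, which couples receptors to RAS activation, averaged 109 ± 1.68 CPM in gFBXW7_gKMT2D, 123 ± 0.999 CPM in gFBXW7 and 115 ± 2.54 CPM in gLuc. Its gFBXW7_gKMT2D libraries lay below all gLuc libraries (3.69% of all tested genes) and below all gFBXW7 libraries (5.2%). The log2 fold changes were -0.08 (SE 0.10, edgeR adjusted p = 0.90) and -0.17 (SE 0.10). The gFBXW7 libraries lay above all gLuc libraries for GRB2, as they did in 580 of the 13262 tested genes. LCP2 (SLP-76), the T cell counterpart of BLNK, averaged 9.41 ± 1.80 CPM in gFBXW7_gKMT2D, 8.90 ± 2.11 CPM in gFBXW7 and 12.6 ± 2.28 CPM in gLuc, with a log2 fold change of -0.42 (SE 0.23, edgeR adjusted p = 0.90) in gFBXW7_gKMT2D against gLuc. HCLS1, an actin-binding LYN substrate, had -0.03 (SE 0.15), LAX1, another membrane adaptor, -0.03 (SE 0.15), and PAG1, the anchor of CSK, 0.03 (SE 0.26) in the same comparison. These 5 adaptors did not pass the test in any comparison.

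Of the enzymes, CSK, which switches off Src family kinases, averaged 185 ± 18.6 CPM in gFBXW7_gKMT2D, 238 ± 13.6 CPM in gFBXW7 and 209 ± 18.1 CPM in gLuc. PTPN6 (SHP-1), the phosphatase of inhibitory receptors, averaged 267 ± 44.2 CPM in gFBXW7_gKMT2D, 362 ± 23.7 CPM in gFBXW7 and 306 ± 31.0 CPM in gLuc. Their log2 fold changes against gFBXW7 were -0.36 (SE 0.13) and -0.44 (SE 0.16), with an edgeR adjusted p of 1 for each. INPP5D (SHIP1), which removes a phosphate from the lipid made by PI3-kinase, had 0.05 (SE 0.30, edgeR adjusted p = 0.97) against gLuc, and PLCG1 had -0.38 (SE 0.33, edgeR adjusted p = 0.90). FYN, a Src family kinase, averaged 18.2 ± 1.36 CPM in gFBXW7_gKMT2D, 16.7 ± 0.693 CPM in gFBXW7 and 13.4 ± 1.5 CPM in gLuc. Its log2 fold change in gFBXW7_gKMT2D against gLuc was 0.45 (SE 0.13, edgeR unadjusted p = 0.0075, adjusted p = 0.90). The gFBXW7_gKMT2D libraries lay above all gLuc libraries, as they did in 435 of the 13262 tested genes, and overlapped with gFBXW7. The gFBXW7 libraries also lay above all gLuc libraries for FYN, as they did in 580 of the 13262 tested genes. The log2 fold change of FYN in gFBXW7 against gLuc was 0.32 (SE 0.13, edgeR unadjusted p = 0.036, adjusted p = 0.96).

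Downstream, RASGRP3, a RAS exchange factor that responds to the lipid product of PLCG2, had 28.0, 33.0 and 24.5 CPM in gFBXW7_gKMT2D, 38.8, 34.9 and 34.3 CPM in gFBXW7, against 38.95, 43.6 and 45.2 CPM in gLuc. The gFBXW7_gKMT2D libraries lay below all gFBXW7 and all gLuc libraries, as they did in 5.2% and 3.69% of all tested genes. The log2 fold change was -0.58 (SE 0.14, edgeR unadjusted p = 0.0023, adjusted p = 0.79) in gFBXW7_gKMT2D against gLuc and -0.34 (SE 0.14) against gFBXW7. In gFBXW7 against gLuc it was -0.24 (SE 0.14, edgeR adjusted p = 0.96). There the gFBXW7 libraries also lay below all gLuc libraries, as they did in 595 of the 13262 tested genes. RAC2, a blood cell GTPase that VAV1 acts on, averaged 381 ± 40.6 CPM in gFBXW7_gKMT2D, 425 ± 28.0 CPM in gFBXW7 and 407 ± 11.95 CPM in gLuc and did not pass the test.

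**Figure D5:**
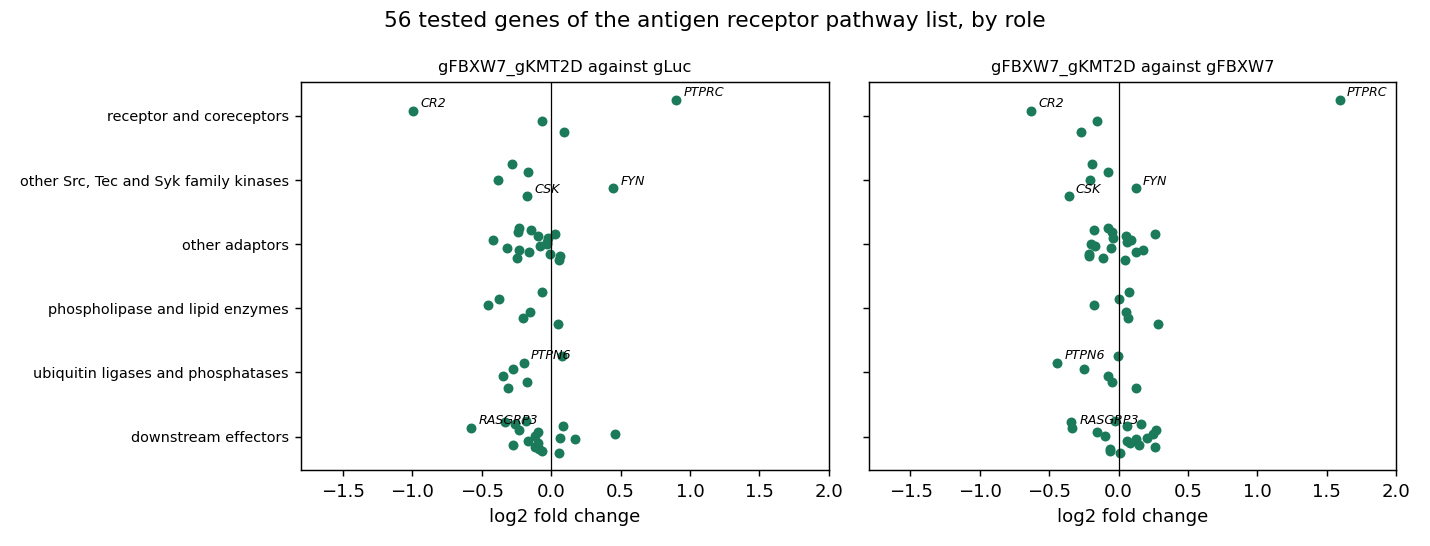
Log2 fold changes (x axis) of the 56 tested pathway genes, 1 point per gene, in rows by role, in gFBXW7_gKMT2D against gLuc (left) and against gFBXW7 (right). Points lie mostly within 0.5 of 0, with PTPRC at 0.90 and 1.59, CR2 at -0.997 and -0.63 and RASGRP3 at -0.58 and -0.34, and none passed the adjusted threshold.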

How the data were processed

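The tools named in the submitters' processing notes are STAR, Trimmomatic, DESeq2 and featureCounts, without versions, and the build is GRCh38. In the deposited table are raw read counts and RPKM values that the authors made for each gene and library, per the file headers. An unnamed row equal to the column sums was left out. Counts were fitted in R 4.3.3 with edgeR 4.0.16: filterByExpr (13262 genes), TMM, a quasi-likelihood fit on all 9 libraries with a term for group, glmQLFTest, and Benjamini-Hochberg adjustment over all tested genes at 0.05. Standard errors were derived from the fold change and F. Alternatives were other scalings and filters, DESeq2 1.42.0, limma-voom (limma 3.58.1), 1 surrogate variable (sva 3.50.0), the replicate block, the 6 compared libraries and each library left out. The edgeR fit was also run on simulated counts, drawn for each gene separately with no shift shared by the genes of a library. Such shifts between the real libraries were therefore not covered by it. Figures used Python 3.11.15 and matplotlib 3.10.9.

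The members and lists were chosen with earlier results of these data known. Named were all members, called pathway genes and a fixed set (CD79A, CD79B, LCP2, GRB2, LAX1, PAG1, PLCG1, INPP5D, PTPN6, HCLS1, RAC2, RASGRP3), of which some genes are not reported here. The 3 genes most like LAT or VAV1 were also named. PTPRC, CR2, FYN, CSK, TEC, TXK and ZAP70 were named after their values were seen. Proteins of LAT and LAT2 were not used here. Chi-square per degree of freedom between libraries of 1 group was 6.36 to 231, so none was a repeat of another. Same-numbered libraries were not paired, since correlations of their deviations ran from -0.586 to 0.454. The design text calls the replicates independent biological ones.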

Additional observations from a re-analysis of the deposited data

How the results depend on the processing

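The counts of called members were 0 in all 3 comparisons under all alternatives run. In the 2 comparisons with gFBXW7_gKMT2D these counts leave out LAT and VAV1, which were not tested there. The pathway counts were 0 too, except that with 1 surrogate variable 1 gene was called lower in gFBXW7_gKMT2D against gLuc (RASGRP3, log2 fold change -0.50, adjusted p = 0.033) and 1 in gFBXW7_gKMT2D against gFBXW7 (CSK, -0.37, adjusted p = 0.049), when 54 and 125 genes were called in all instead of 7 and 8, and the cause was not tested. Over all genes the other alternatives called 2 to 24 against gLuc and 0 to 33 against gFBXW7. Log2 fold changes of LAT ran from -1.05 to -0.71 against gLuc and from -1.33 to -1.03 against gFBXW7 when single libraries were left out, and those of VAV1 from -0.61 to -0.47 and from -0.70 to -0.62. In gFBXW7_gKMT2D against gLuc, BLNK ran from -0.36 to -0.17, LAT2 from 0.0043 to 0.51, LYN from 0.0069 to 0.22 and PLCG2 from 0.14 to 0.41. In gFBXW7_gKMT2D against gFBXW7, BLNK ran from -0.52 to -0.33 and LYN from 0.07 to 0.20. In gFBXW7 against gLuc the values ran from 0.12 to 0.46 for LAT from 0.04 to 0.19 for VAV1, from 0.04 to 0.25 for BLNK and from 0.19 to 0.44 for PLCG2. With the replicate block, LAT was at -0.88 and -1.15 and VAV1 at -0.55 and -0.66 in the 2 comparisons with gFBXW7_gKMT2D, against gLuc and gFBXW7. The block changed no call of a tested member or pathway gene. From counts not divided by length, shares were 86.0% for LAT in gFBXW7_gKMT2D and, for VAV1, 72.8% in gFBXW7_gKMT2D, 80.6% in gFBXW7 and 79.1% in gLuc.

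Directions near 0 turned. With 1 surrogate variable VAV2 was at 0.039 in gFBXW7_gKMT2D against gLuc, and in gFBXW7 against gLuc VAV2 was at 0.065, LYN at 0.027 and LAT2 at -0.0079. With single libraries left out, VAV2 ran from -0.16 to 0.11 against gLuc and from -0.14 to 0.13 against gFBXW7 in gFBXW7_gKMT2D, and from -0.042 to 0.021 in gFBXW7 against gLuc. LAT2 ran from -0.084 to 0.48 and PLCG2 from -0.12 to 0.054 in gFBXW7_gKMT2D against gFBXW7, and LAT2 from -0.24 to 0.35 and LYN from -0.14 to 0.059 in gFBXW7 against gLuc. A minimum mean of 50 reads removed LAT2 and PLCG2 from the test. At 9 to 21 reads per library, the log2 fold change of LAT2 had an SE of 0.37 in gFBXW7_gKMT2D against gLuc. The upper limit given for BTK covers counting error only, while the SEs come from the fit and include the spread between libraries.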
